A study of Mus musculus with 40 samples.

Results

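The 8 genes described here carry out DNA replication or supply its nucleotides: Cdc6, Mcm4 and Mcm10, which act at replication origins, Pcna and Lig1, which act at the fork, and Dut, Tyms and Tk1, which make thymidine nucleotides. They were taken by gene symbol from the array's annotation and are 8 of the 13027 genes and unnamed probes on the array. The rule holds no measured value, but the 8 genes were chosen with earlier results of these data known. Their counts beside a share of all genes tested are therefore only descriptive. Mcm10 had 2 probes and each of the others had 1. All 8 were measured in at least 3 mice of every group and were tested, as were 5297 of the 13027.

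Marrow cells of DBA/2 mice, an inbred laboratory strain, were compared between 5 untreated control mice and 3 groups of 5 mice that received 83 mg/kg of cyclophosphamide intraperitoneally, with marrow taken 1, 2 or 5 days later (age and sex not given in the sources used here). Each mouse was hybridised on 2 arrays against 1 common reference pool, with the mouse's RNA in Cy5 and the pool in Cy3. Values are log ratios of mouse over pool, taken here as log2, so that a value of 0 is the level of the pool. One field of the labels describes the pool as untreated DBA/2 marrow and another says that its mice were given the drug, which does not touch differences between groups but leaves the meaning of a level against the pool unsettled.

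A replication origin is licensed before S phase, when Cdc6 helps to load the MCM helicase, of which Mcm4 is a subunit, onto DNA, and Mcm10 takes part in switching the helicase on. At the fork, PCNA is the sliding clamp that holds the polymerases, and DNA ligase 1 joins the fragments of the lagging strand. Dut removes dUTP and yields dUMP, thymidylate synthase (Tyms) turns dUMP into dTMP, and thymidine kinase 1 (Tk1) makes dTMP from salvaged thymidine. Many such genes are switched on as cells pass from G1 to S phase by the E2F transcription factors. Bone marrow holds many dividing blood cell precursors, and cyclophosphamide is an alkylating cytostatic drug whose active products cross-link DNA.

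The promoters of the 4 genes that were lower on both day 1 and day 2, and of Dut for contrast, were set side by side because the 4 moved together. RefSeq windows on GRCm38.p6, each from 250 bases before to 50 bases after a gene's start, existed for 7 of the 8 genes, and Mcm4 is only named. The windows shown are chr11:98907901-98908200 on the plus strand for Cdc6, chr2:132253131-132253430 on the minus strand for Pcna, chr5:30073576-30073875 on the minus strand for Tyms, chr11:117825965-117826264 on the minus strand for Tk1 and chr2:125247265-125247564 on the plus strand for Dut. Capitals mark any match, on either strand, to an E2F motif (TTTCCCGC, TTTGGCGC, TTTCGCGC or TTTGCCGC), a CCAAT box (CCAAT) or a GC box (GGGCGG). The sequences are printed 5′ to 3′ on the gene's own strand.
Cdc6: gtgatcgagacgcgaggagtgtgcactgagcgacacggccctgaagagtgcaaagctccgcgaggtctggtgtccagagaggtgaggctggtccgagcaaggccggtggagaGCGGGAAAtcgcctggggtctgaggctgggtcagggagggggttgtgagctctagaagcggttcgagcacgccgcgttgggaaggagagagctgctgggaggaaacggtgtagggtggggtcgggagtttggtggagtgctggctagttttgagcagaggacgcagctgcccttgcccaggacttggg
Pcna: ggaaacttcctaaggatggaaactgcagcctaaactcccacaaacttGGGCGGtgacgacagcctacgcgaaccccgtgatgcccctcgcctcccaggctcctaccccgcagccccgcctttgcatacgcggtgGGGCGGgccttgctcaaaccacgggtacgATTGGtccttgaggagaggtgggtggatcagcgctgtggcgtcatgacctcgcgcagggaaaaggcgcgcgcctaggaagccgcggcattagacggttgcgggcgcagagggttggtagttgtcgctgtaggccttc
Tyms: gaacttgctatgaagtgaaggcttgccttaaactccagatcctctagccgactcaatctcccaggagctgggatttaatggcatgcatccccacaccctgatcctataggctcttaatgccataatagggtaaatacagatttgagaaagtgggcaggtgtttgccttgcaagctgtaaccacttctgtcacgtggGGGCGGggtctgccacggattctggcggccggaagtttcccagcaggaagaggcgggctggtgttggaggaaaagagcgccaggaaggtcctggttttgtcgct
Tk1: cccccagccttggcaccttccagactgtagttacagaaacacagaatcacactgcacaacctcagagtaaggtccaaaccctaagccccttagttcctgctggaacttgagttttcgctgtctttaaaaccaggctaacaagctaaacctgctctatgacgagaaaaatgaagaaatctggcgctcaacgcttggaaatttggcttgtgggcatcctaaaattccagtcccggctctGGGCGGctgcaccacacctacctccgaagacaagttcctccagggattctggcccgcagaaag
Dut: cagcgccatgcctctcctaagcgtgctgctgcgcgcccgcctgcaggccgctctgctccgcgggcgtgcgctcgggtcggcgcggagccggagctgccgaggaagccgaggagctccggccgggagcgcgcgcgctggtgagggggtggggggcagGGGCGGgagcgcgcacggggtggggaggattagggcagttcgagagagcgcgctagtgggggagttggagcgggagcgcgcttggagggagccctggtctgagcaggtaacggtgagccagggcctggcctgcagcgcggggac
Of the 5 genes shown, Cdc6 had an E2F match, read as GCGGGAAA on the gene's strand and starting 138 bases before the start. Lig1, which was not called against control and is not shown, also had an E2F match in 1 of its 3 windows, read as GCGCGAAA. Pcna had 2 GC boxes and 1 CCAAT box, and Tyms, Tk1 and Dut had 1 GC box each. Over all 32851 windows of the table, 2.26% held an E2F match, 37.4% a CCAAT box and 35.7% a GC box. A match is a description of the letters in the window and was not tied to the binding of any factor.

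On day 1, 6 of the 8 genes fell against control, namely Cdc6, Mcm4, Pcna, Dut, Tyms and Tk1, by 0.45 to 0.94 on the log2 scale. In the same fit 8.38% of all genes tested were lower on day 1. On day 2, 4 genes were lower, Cdc6, Pcna, Tyms and Tk1, against 9.61% of all genes tested. On day 5, 0 of the 8 differed from control in limma's fit, also at an unadjusted p under 0.05, against 2.62% of all genes tested called in either direction. A gene was called at an adjusted p under 0.05 in limma's moderated fit over all 5297 genes tested, with Benjamini-Hochberg adjustment. In bulk marrow, fewer cells of a type and less RNA per cell cannot be told apart.

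**Figure D1:**
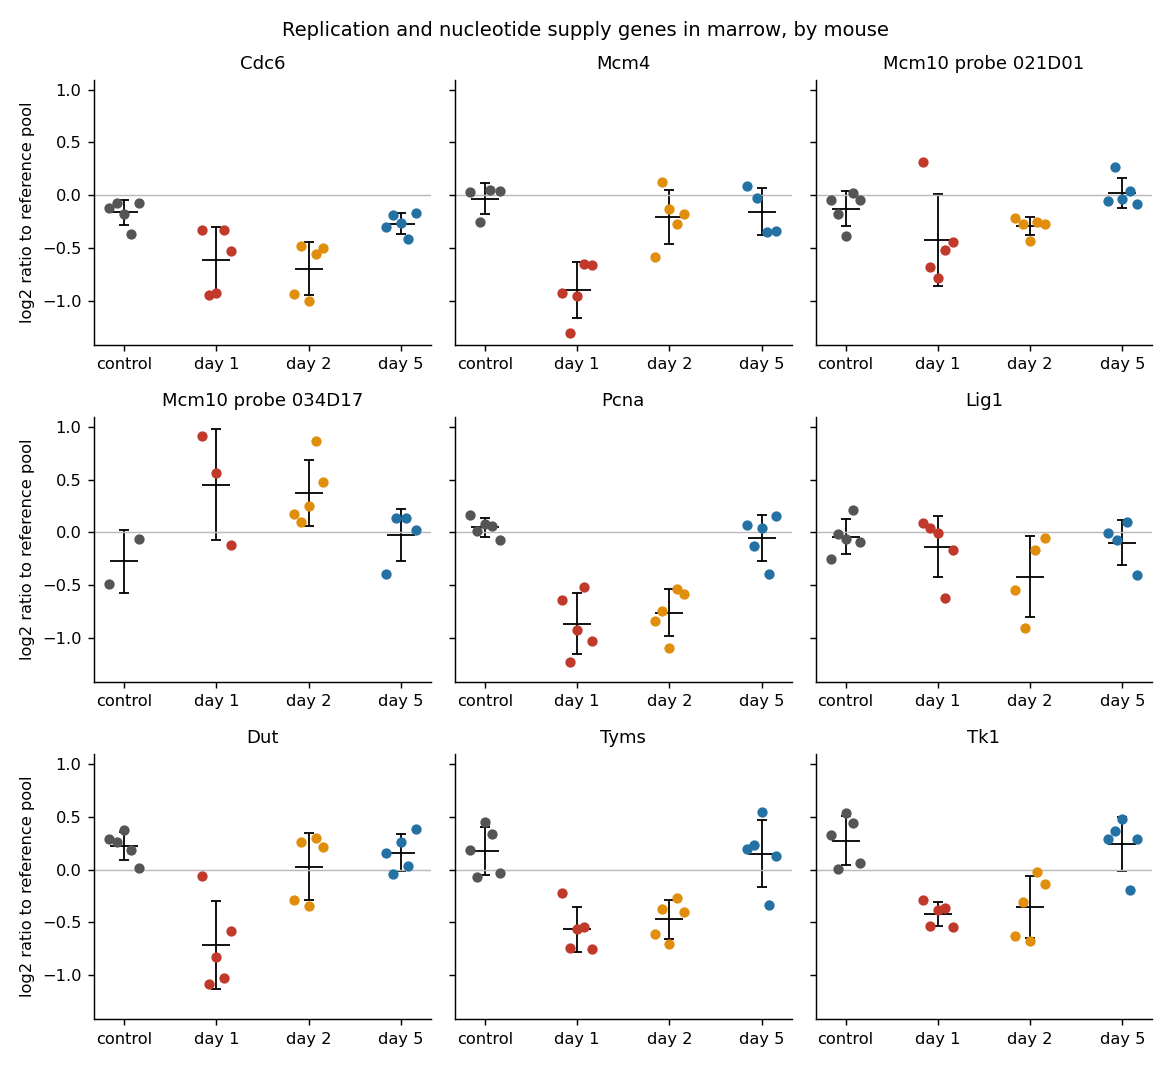
Log2 ratio of each mouse to the reference pool, for the 7 genes with a single probe and for both Mcm10 probes, by group. Points are mice (mean of 2 arrays), horizontal lines are group means and bars are 1 SD. Pcna lies between -1.22 and -0.51 on day 1 and between -1.09 and -0.54 on day 2, below all 5 control mice.

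Pcna, the sliding clamp, was lower on day 1 and day 2 and near control on day 5. Its log2 ratios in control mice 1 to 5 were 0.17, 0.011, 0.082, 0.061 and -0.073. On day 1 the ratios were -0.64, -1.22, -0.93, -0.51 and -1.03, and every treated mouse lay below every control mouse. Day 2 mice stood at -0.84, -0.74, -1.09, -0.54 and -0.59, again with no overlap with control. By day 5 the values were 0.074, -0.13, 0.039, -0.39 and 0.16, which overlap the control values, and mouse 4 was the lowest. The change against control was -0.92 ± 0.13 (SE, adjusted p = 0.00028) on day 1, a level 1.89-fold lower, and -0.81 ± 0.13 (adjusted p = 0.000291) on day 2. On day 5 it was -0.099 (95% interval -0.37 to 0.18, adjusted p = 0.909).

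Lig1, the ligase of the same step, was not called in any comparison with control. Control mice had log2 ratios of -0.25, -0.011, -0.065, 0.21 and -0.092. The day 1 ratios of 0.088, 0.037, -0.007, -0.62 and -0.17 spread across the control range apart from mouse 4. On day 2 Lig1 was measured in 4 mice, at -0.55, -0.90, -0.17 and -0.054, so that mice 1 and 3 lay below all controls and the others did not. The 4 day 5 mice measured had -0.0063, -0.071, 0.10 and -0.40. The day 1 change was -0.093 ± 0.16 (SE, 95% interval -0.42 to 0.23, adjusted p = 0.72). On day 2 the change was -0.38 ± 0.17 (95% interval -0.72 to -0.033), with p = 0.0332 in limma's fit and an adjusted p of 0.118. Without day 2 mouse 5 it was called lower, at -0.50 (limma, adjusted p = 0.0448).

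Cdc6, the loading factor, started from log2 ratios of -0.12, -0.075, -0.18, -0.36 and -0.072 in the control mice. On day 1 the mice fell into a low pair, mice 2 and 3 at -0.95 and -0.92, and 3 others at -0.33, -0.33 and -0.53, of which 2 lie above the lowest control mouse. The day 2 mice, at -0.94, -0.48, -0.997, -0.56 and -0.50, were all below the controls. On day 5 the values were -0.30, -0.18, -0.27, -0.42 and -0.17. The changes against control were -0.45 ± 0.13 (SE, limma, adjusted p = 0.0205) on day 1 and -0.53 ± 0.13 (adjusted p = 0.00682) on day 2. The day 1 call rested on the low pair: without mouse 2 the change was -0.36 (limma, adjusted p = 0.0688), and without mouse 3 it was -0.37 (adjusted p = 0.0687). On day 5 the change was -0.10 (95% interval -0.38 to 0.17).

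Mcm4, the helicase subunit, was low on day 1 and nearer to control on day 2. It was measured in 4 control mice, with log2 ratios of 0.031, -0.25, 0.051 and 0.044. On day 1 all 5 mice were far below these, at -0.93, -1.30, -0.96, -0.65 and -0.66. On day 2 the ratios were -0.59, 0.12, -0.13, -0.27 and -0.18, so that every day 2 mouse lay above every day 1 mouse and only mice 1 and 4 lay below all controls. The 4 day 5 mice measured were at 0.092, -0.027, -0.35 and -0.34. The change against control was -0.87 ± 0.15 (SE, limma, adjusted p = 0.000757) on day 1, a level 1.82-fold lower, and -0.18 ± 0.15 (95% interval -0.49 to 0.13, adjusted p = 0.443) on day 2. This probe had the widest spread between the arrays of a mouse among the genes with a single probe, and in day 2 mouse 5 the 2 arrays differed by 0.90.

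Mcm10 cannot be given 1 direction, because its 2 probes went different ways. The probe 021D01, measured in all 20 mice, had log2 ratios of 0.32, -0.68, -0.78, -0.52 and -0.44 on day 1. In the control mice it gave -0.047, -0.18, -0.39, 0.026 and -0.044, so that 4 of the 5 day 1 mice lay below the controls and mouse 1 lay above them all. The probe 034D17 was measured in 14 mice, including only 2 controls, at -0.49 and -0.062. It stood at 0.91, 0.57 and -0.12 in the 3 day 1 mice measured and at 0.17, 0.094, 0.25, 0.87 and 0.47 on day 2, where all 5 mice were above both controls. Too few control mice had this probe for a test. The mean of the probes changed by 0.072 ± 0.13 (SE, limma, adjusted p = 0.742) on day 1, and the probe 021D01 alone by -0.29 ± 0.15 (adjusted p = 0.164). On day 2 the probe 021D01 changed by -0.17 (95% interval -0.47 to 0.14, adjusted p = 0.471).

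Among the genes of thymidine nucleotide supply, Tyms and Tk1 were lower on both day 1 and day 2. Tyms log2 ratios were 0.18, -0.073, 0.45, 0.34 and -0.037 in the control mice and -0.23, -0.74, -0.56, -0.54 and -0.75 on day 1. Its day 2 ratios were -0.61, -0.38, -0.71, -0.27 and -0.40, so that neither day overlapped control. On day 5 Tyms was at 0.19, 0.23, 0.54, -0.34 and 0.12, with mouse 4 alone below 0. The change was -0.74 ± 0.14 (SE, limma, adjusted p = 0.00157) on day 1 and -0.64 ± 0.14 (adjusted p = 0.00337) on day 2.

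Tk1 log2 ratios were 0.33, 0.00057, 0.53, 0.45 and 0.064 in the control mice. On day 1 the mice lay close together at -0.29, -0.54, -0.39, -0.36 and -0.54. On day 2 they spread to -0.63, -0.31, -0.68, -0.019 and -0.14, still all below the lowest control mouse, mouse 4 only narrowly. The day 5 values, at 0.29, 0.36, 0.48, -0.19 and 0.28, again had mouse 4 alone below 0. The change against control was -0.70 ± 0.14 (SE, limma, adjusted p = 0.00207) on day 1 and -0.63 ± 0.14 (adjusted p = 0.00353) on day 2. On day 5 the change was -0.03 for Tk1 (95% interval -0.32 to 0.26) and -0.02 for Tyms (95% interval -0.32 to 0.28).

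Dut, the dUTPase, was low on day 1 and nearer to control on day 2. Control mice had log2 ratios of 0.29, 0.26, 0.37, 0.18 and 0.015. On day 1 the ratios were -0.062, -1.08, -0.82, -1.03 and -0.58, all below the controls, with mouse 1 close to them. On day 2, mice 2, 4 and 5 were back at 0.26, 0.30 and 0.21, within the control range, while mice 1 and 3 were at -0.29 and -0.34. The day 5 values were 0.16, -0.044, 0.26, 0.037 and 0.39. The change was -0.94 ± 0.16 (SE, limma, adjusted p = 0.000735) on day 1, a level 1.92-fold lower, and -0.20 ± 0.16 (95% interval -0.53 to 0.14, adjusted p = 0.443) on day 2.

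**Figure D2:**
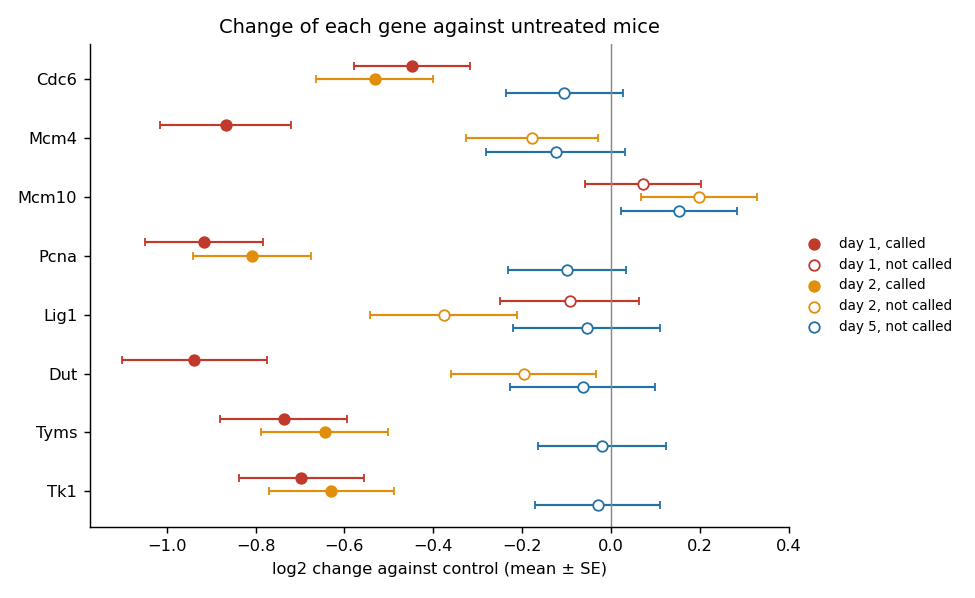
Log2 change of each of the 8 genes against the untreated mice on day 1, day 2 and day 5, with bars of 1 SE. Mcm10 is drawn as the mean of its 2 probes, and its probe 021D01 alone was at -0.29 on day 1 and -0.17 on day 2. Filled points were called at an adjusted p under 0.05 and open points were not. Mcm4 and Dut stand at -0.87 and -0.94 on day 1 and at -0.18 and -0.20 on day 2, while Pcna stands at -0.92 and -0.81.

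On day 1, every measured treated mouse lay below every measured control mouse for 5 of the 8 genes (Mcm4, Pcna, Dut, Tyms and Tk1). The same held for 6.1% of all genes tested. On day 2 it held for 4 of the 8 (Cdc6, Pcna, Tyms and Tk1), against 9.4% of all genes tested. Genes with every treated mouse above the controls are not in these shares. The 3 drug groups share the control mice, so the comparisons with control are not independent of each other. The difference between 2 treated groups leaves the control means out, but its SE and p still use the spread of all groups in the fit. From day 1 to day 2, Mcm4 rose by 0.69 ± 0.14 (SE, limma, adjusted p = 0.00891) and Dut by 0.74 ± 0.16 (adjusted p = 0.0118), and 1.36% of all genes tested rose in that comparison. With only the day 1 and day 2 mice in the fit, the Dut change kept its size and its adjusted p was 0.0802. The other 6 genes were not called between day 1 and day 2. Of these, Pcna changed by 0.11 (95% interval -0.17 to 0.38), Cdc6 by -0.084 (-0.36 to 0.19), Tyms by 0.092 (-0.20 to 0.39) and Tk1 by 0.068 (-0.22 to 0.36).

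Whether 2 genes differed in their change from day 1 to day 2 was compared within mice, for all 28 pairs of the 8 genes, with an exact two-sided permutation test of day 2 against day 1. Mcm10 entered by its probe 021D01. The Dut change was above those of Pcna, Cdc6, Tyms, Tk1 and Lig1 by between 0.64 and 0.97 log2 units, and above that of the Mcm10 probe by 0.61. Relative to Cdc6 the Dut change was 0.83 ± 0.17 (SE, exact permutation p = 0.00794, the smallest that 5 against 5 mice allow). The Mcm4 change was above that of Cdc6 by 0.77 ± 0.15 (exact permutation p = 0.00794), of Tyms by 0.60 ± 0.19 and of Pcna by 0.58 ± 0.19 (each exact permutation p = 0.0238). Of the 28 pairs, 11 had an exact permutation p under 0.05, all of them with Dut or Mcm4, and 0 passed after Benjamini-Hochberg adjustment over the 28, where the smallest adjusted value was 0.0556. Among the 15 pairs with neither gene the smallest exact permutation p was 0.0952. Dut and Mcm4 themselves differed by 0.053 ± 0.24 (exact permutation p = 0.81). With array 1 or array 2 of each mouse alone, Mcm4 was above Cdc6 by 0.52 to 0.89, Tyms by 0.40 to 0.74 and Pcna by 0.43 to 0.60. The adjusted permutation p reached 0.229, 0.308 and 0.267. Dut was above the same genes by 0.74 to 0.91, 0.54 to 0.77 and 0.62 to 0.65, with an adjusted permutation p of at most 0.0741. The comparison of pairs was chosen after the values had been seen. Pairs that hold the same gene share its values, so the 11 pairs are not separate results.

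**Figure D3:**
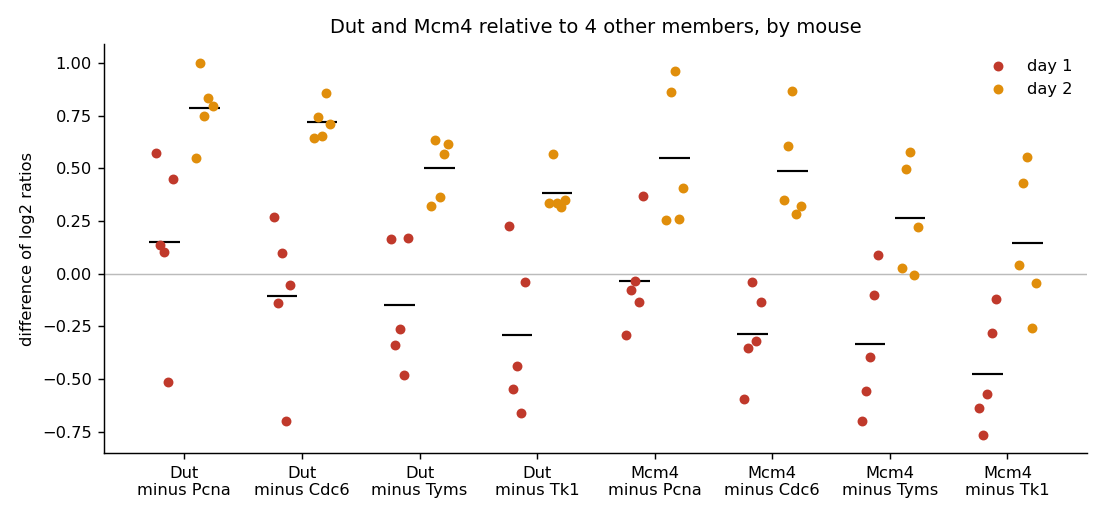
Difference of log2 ratios within a mouse, Dut or Mcm4 minus Pcna, Cdc6, Tyms or Tk1, in the 5 day 1 and the 5 day 2 mice, with lines at the group means. Dut minus Cdc6 averages -0.10 on day 1 and 0.72 on day 2 with no overlap between the days.

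Between day 2 and day 5 the 4 genes that had stayed low rose: Pcna by 0.71 ± 0.13 (SE, limma, adjusted p = 0.00052), Tyms by 0.62 ± 0.14 (adjusted p = 0.00302), Tk1 by 0.60 ± 0.14 (adjusted p = 0.00361) and Cdc6 by 0.43 ± 0.13 (adjusted p = 0.0219). In that comparison 10.3% of all genes tested rose. The Cdc6 call was lost without day 2 mouse 1 (0.37, limma adjusted p = 0.0739), without day 2 mouse 3 (0.35, adjusted p = 0.0793) and with quantile normalization between mice (0.29, adjusted p = 0.0611). From day 1 to day 5, Dut, Pcna, Mcm4, Tyms and Tk1 rose by 0.88, 0.82, 0.74, 0.72 and 0.67 respectively, against 12.2% of all genes tested, and every day 5 mouse measured (4 for Mcm4, 5 for the others) was above the day 1 mean of the gene. For Cdc6 the day 1 to day 5 change was 0.34 ± 0.13 (limma, adjusted p = 0.0572), which became a call without day 1 mouse 1 (0.41, adjusted p = 0.0224) or mouse 4 (0.41, adjusted p = 0.0254). The Mcm10 probe 021D01 rose by 0.45 ± 0.15 over that span (limma, adjusted p = 0.0276) and the mean of the Mcm10 probes changed by 0.082 (adjusted p = 0.69).

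Within groups, some mice had the lowest or the highest value for several of the genes, counting Mcm10 by its probe 021D01. Day 2 mouse 3 had the lowest value of its group for 7 of the 8 genes and day 5 mouse 4 for 5. Day 1 mouse 1 was the highest of its group for 5 genes and day 1 mouse 2 the lowest for 4. In the controls, mouse 3 was the highest for 4 genes and the lowest for 1. Other mice were mixed too. Day 1 mouse 4 was the highest for 3 and the lowest for 1, and day 5 mouse 5 the highest for 3 and the lowest for 2. Day 5 mouse 4 was also the highest for 1. All genes of a mouse share its RNA preparation and arrays, and the part of this in these counts was not tested. The same counts were not made over all genes. The SD between the 2 arrays of a mouse ran from 0.058 for Cdc6 to 0.19 for Mcm4 and lay below the SD between mice of a group, with 3 exceptions. These were Mcm4 in control mice (0.15 between mice), the Mcm10 probe 021D01 on day 2 (0.084 between mice, 0.11 between arrays) and Tk1 on day 1 (0.11 between mice, 0.13 between arrays). The array SD is that of a single array, and the SD between mice is over means of up to 2 arrays. A mean of 2 arrays varies less than 1 array, so the 3 exceptions set unlike measures side by side. Pcna, Dut, Cdc6 and Tyms had values on all 40 arrays, Tk1 on 39, Lig1 on 34 and Mcm4 on 33.

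The wider machinery was described with 129 other genes in 4 lists, of which 94 were on the array and 35 could be tested. These lists, too, were chosen with earlier results of these data known. Of these 35, 9 fell and 2 rose on day 1, 9 fell and 1 rose on day 2, and 0 were called on day 5 (limma). Over all genes tested, 8.38% fell and 10.7% rose on day 1, 9.61% fell and 9.61% rose on day 2, and 2.62% were called on day 5. The MCM subunits Mcm2, Mcm3 and Mcm7 had values in 0 mice and Mcm5 in 1, so the helicase is represented here by Mcm4 and Mcm6. The medians over all genes tested were -0.015 on day 1, -0.022 on day 2 and 0.0078 on day 5.

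Genes of polymerases and the fork held the most calls: 5 of 10 tested fell on both days (8.38% and 9.61% of all genes tested), with median changes of -0.36 and -0.41 over the 10. Rnaseh2a, the catalytic subunit of the RNase H2 that removes RNA from DNA, changed by -0.80 ± 0.17 (SE, limma, adjusted p = 0.00253) on day 1 and -0.60 on day 2. Pclaf, which binds PCNA, changed by -0.62 and -0.56. Rpa3, a subunit of the protein that coats single-stranded DNA, changed by -0.51 and -0.49, and Pold4, a small subunit of polymerase delta, by -0.39 and -0.62. Pole4, the fifth, is a small subunit of polymerase epsilon and changed by -0.34 and -0.33.

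Of the origin and helicase genes, 1 of 7 fell on each day, near the 8.38% and 9.61% of all genes tested, with medians of -0.33 and -0.15. Mcm6, which sits in the same helicase as Mcm4, fell by 0.59 on day 1 (SE 0.15, limma, adjusted p = 0.0117, 3 mice in each group), and was at -0.15 (adjusted p = 0.489) on day 2. From day 1 to day 2 it changed by 0.44 ± 0.13 (limma, adjusted p = 0.0975). Gins4, a subunit of the GINS complex that joins MCM in the active helicase, was at -0.36 (adjusted p = 0.0723) on day 1 and fell by 0.59 (adjusted p = 0.00496) on day 2.

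In nucleotide supply, 3 of 9 genes tested fell on day 1 and 1 on day 2, with medians of -0.26 and -0.032. Of all genes tested, 8.38% and 9.61% fell on these days. The day 1 genes were Guk1, the guanylate kinase, at -0.42 ± 0.11 (SE, limma, adjusted p = 0.013), Cmpk1, which phosphorylates CMP and UMP, at -0.34, and Paics, an enzyme of purine synthesis, at -0.32. Guk1 and Paics stood at -0.032 and -0.017 on day 2. Dguok, the mitochondrial deoxyguanosine kinase, was at -0.26 (adjusted p = 0.0919) on day 1 and fell by 0.43 (adjusted p = 0.00701) on day 2. Rrm2, a subunit of ribonucleotide reductase, was at -0.063 on day 1 and at -0.55 ± 0.21 on day 2 (limma, adjusted p = 0.067). Other uncalled genes of the list went the other way on day 2. Shmt2 was at 0.43 ± 0.15 (limma, adjusted p = 0.0551), Cad at 0.38 ± 0.14 (adjusted p = 0.0649) and Uck2 at 0.27 ± 0.13 (adjusted p = 0.167).

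Among regulators of the G1 to S step, 2 of 9 tested rose on day 1, and 2 fell and 1 rose on day 2, with medians of -0.072 and -0.12. Of all genes tested, 10.7% were higher on day 1 and 9.61% on day 2. Cdkn1a encodes p21, an inhibitor of cyclin-dependent kinases and a target of p53, and rose by 1.63 ± 0.26 (SE, limma, adjusted p = 0.000508) on day 1 and 1.69 ± 0.26 (adjusted p = 0.000144) on day 2. On day 5 it was at 0.27 (adjusted p = 0.851). Ccnd3, a D-type cyclin, was at -0.35 (adjusted p = 0.109) on day 1 and fell by 0.86 (adjusted p = 0.000214) on day 2. Cdkn2c, an inhibitor of Cdk4 and Cdk6, fell by 0.80 (adjusted p = 0.0401) on day 2, and E2f5, a repressive E2F, rose by 0.31 (adjusted p = 0.0454) on day 1.

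**Figure D4:**
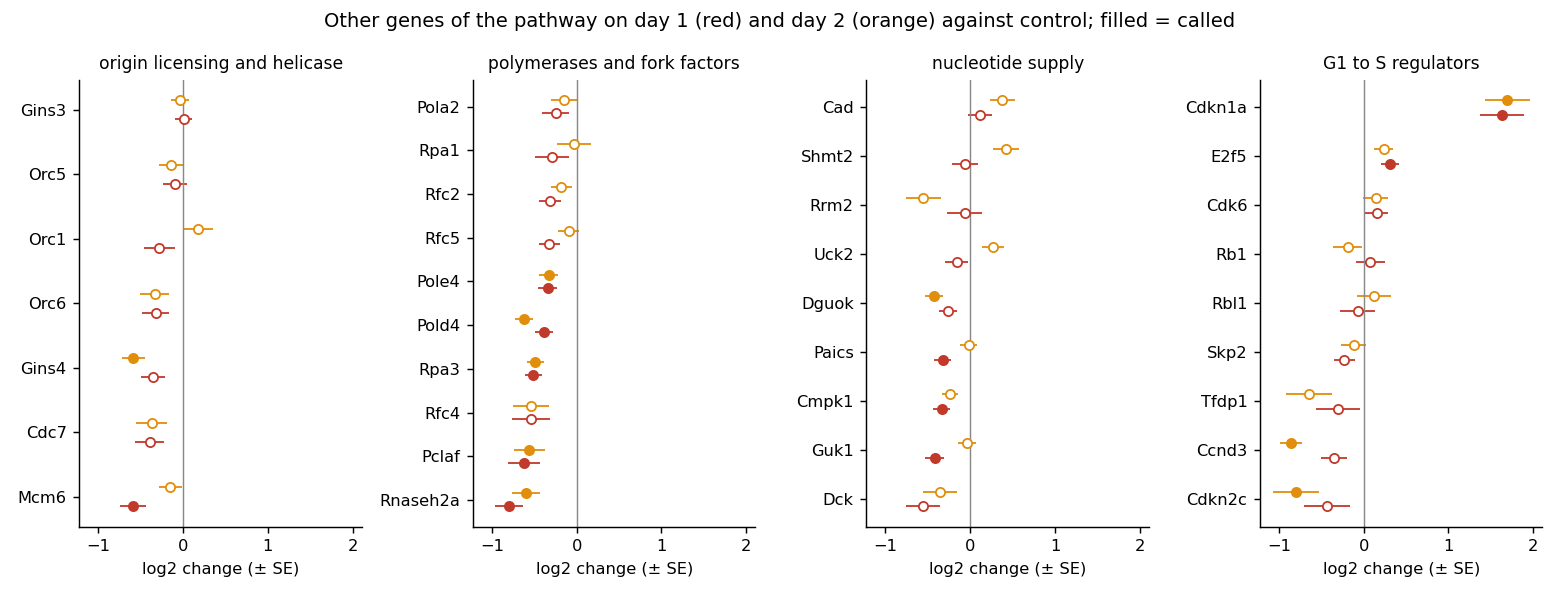
Log2 change against control of the 35 tested genes of 4 lists of replication, nucleotide and cell cycle genes, on day 1 (red) and day 2 (orange), with bars of 1 SE. Filled points were called at an adjusted p under 0.05. In the list of polymerases and fork factors 5 genes are filled on both days, and Cdkn1a stands at 1.63 and 1.69.

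Of 2248 other named genes measured in all 20 mice, those nearest to the mean of the 6 genes measured in all mice (Cdc6, Mcm10, Pcna, Dut, Tyms and Tk1) were Med28 (a Mediator subunit), Tmtc4, Hmmr, Akip1 and Ube2t, by the root mean square difference of log2 ratios over 20 mice. The distances were 0.113 for Med28, 0.128 for Tmtc4, 0.138 for Hmmr, 0.143 for Akip1 and 0.146 for Ube2t, against a median of 0.36 over the 2248. Mcm10 entered here as the mean of its 2 probes, which went different ways and of which 034D17 was measured in only 14 mice. The mean of the 6 was 0.066 ± 0.074 (SD) in control mice, -0.54 ± 0.21 on day 1, -0.37 ± 0.22 on day 2 and 0.039 ± 0.15 on day 5 (5 mice each). Med28, the nearest, averaged 0.25, -0.34, -0.18 and 0.27 in the same order. Tmtc4 averaged -0.025, -0.63, -0.63 and -0.046, and Akip1 0.15, -0.38, -0.0075 and 0.26. Hmmr, a gene of the mitotic spindle, averaged 0.028, -0.40, -0.35 and -0.011. Ube2t, the ubiquitin-conjugating enzyme of the Fanconi anaemia pathway, averaged -0.00092, -0.45, -0.54 and 0.036. Distances over genes on shared arrays carry no test here.

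Markers of several of the marrow's cell types also changed after the drug, on days that differed between types, and their part in the results was not tested. The granulocyte precursor list had 2 of 7 genes tested, Prtn3 and Plac8, and both fell on day 1. Its mean log2 ratio was 0.50 in control mice (0.23 to 0.82), -0.40 on day 1 (-0.95 to 0.18), 0.44 on day 2 (0.18 to 0.68) and 1.48 on day 5 (1.16 to 1.92). This list was thus below the control range on day 1, overlapped it on day 2 and lay above it on day 5. The B cell precursor list, with Vpreb1 and Vpreb3 tested of 10, was at 0.30 in control mice (-0.077 to 0.56), -0.76 on day 1 (-1.03 to -0.09), -1.12 on day 2 (-1.97 to -0.63) and -1.12 on day 5 (-1.82 to -0.34). Both genes were lower on all 3 days, including day 5, when none of the 8 replication and nucleotide genes was called. Over all genes tested, 8.38% fell on day 1, 9.61% fell on day 2 and 2.62% were called in either direction on day 5.

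Erythroid markers, 8 of 12 tested, averaged -0.32 in control mice (-0.48 to -0.19), -0.44 on day 1 (-0.83 to -0.14), -0.74 on day 2 (-0.85 to -0.60) and -0.52 on day 5 (-1.32 to -0.15), and 1 of the 8 rose on day 1 and 3 fell on day 2. Late neutrophil markers, 6 of 10 tested, averaged 0.08 (-0.097 to 0.21), 0.0073 (-0.43 to 0.35), -1.11 (-1.27 to -0.87) and -0.049 (-0.19 to 0.24) in the same order, and 1 rose on day 1, 4 fell on day 2 and 2 fell on day 5. Macrophage markers, 5 of 8 tested, averaged 0.00048 (-0.39 to 0.20), 0.64 (0.37 to 0.80), 1.08 (0.66 to 1.42) and -0.46 (-0.62 to -0.16), and 2 rose on day 1 and 5 on day 2. The types whose markers fell and rose thus differed between days. Stromal markers, 2 of 8 tested, averaged -0.23 (-0.39 to -0.082), 0.59 (0.31 to 1.02), 0.73 (0.25 to 1.25) and -0.42 (-0.70 to -0.17), and 1 rose on day 1 and both on day 2. The 1 of 9 T cell markers tested averaged -0.088 (-0.20 to -0.029), 0.14 (-0.24 to 0.43), 0.18 (-0.054 to 0.34) and -0.14 (-0.33 to -0.029). Beside these marker counts, 8.38% of all genes tested fell and 10.7% rose on day 1, and 9.61% fell and 9.61% rose on day 2.

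Of the 20 mice, control mouse 4 and day 1 mouse 1 were the least like their own groups, with mean correlations of 0.28 and 0.37 over shared probes, against 0.41 to 0.74 for the other mice. Probes with a value numbered 4654 to 8284 per mouse, and control mouse 4 had the fewest. Without these 2 mice the counts of the 8 genes called were 6 on day 1, 4 on day 2 and 0 on day 5, as with them, and 6 rather than 5 genes were called between day 1 and day 5. None of the values of the 8 genes lay at the value shared by many probes that is seen on 31 of the 40 arrays, as saturated spots would give.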

How the data were processed

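The authors' deposited values are 1 log ratio per probe and array on 40 two-colour arrays, taken here as log2. Per the labels' protocols, amplified RNA of each mouse carried Cy5 and that of the reference pool Cy3. The log base, centring, background correction and the rule for blanks (40.7% to 69.7% of probes per array) stay unknown, being not given in the sources used here. With natural logarithms every fold would be larger. Array medians lay within 0.015 of 0. The direction was taken from the dyes in the labels. The lowest correlation between 2 arrays was -0.175.

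Of 13443 probes, 10032 had 1 annotated symbol, 170 several and 3241 no entry. Probes of a gene and the 2 arrays of a mouse were averaged, with no value filled in. limma 3.58.1 (R 4.3.3) fitted 4 group means to 20 mice for genes measured in at least 3 mice per group, with Benjamini-Hochberg adjustment over all 5297 tested. The fit was tested on simulated data. The 5 named genes nearest to the members and up to 4 called genes per pathway list were named by rule. Rrm2, Shmt2, Cad, Uck2, Pole4 and the markers named outside it were chosen after their values were seen. All 8 genes entered the fit, so the permutation test planned for others was not needed. The 8 genes and the lists were chosen with earlier results of these data known.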

Additional observations from a re-analysis of the deposited data

Results flagged for a closer look

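Mcm4 in control mouse 2 had a log2 ratio of -0.249, apart from the other 3 control mice measured, the nearest of which was at 0.031. The Mcm10 probe 021D01 in day 2 mouse 3 stood at -0.437, and the nearest day 2 mouse was at -0.274. Both gaps exceed Dixon's 95% critical value, which is set so that chance passes it in about 1 in 20 groups.

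Direct comparisons of treated groups differed for these genes. From day 1 to day 2, Mcm4 rose by 0.69 and Dut by 0.74 in limma's fit. From day 2 to day 5, Cdc6 rose by 0.43, Pcna by 0.71, Tyms by 0.62 and Tk1 by 0.60. From day 1 to day 5, Mcm4 rose by 0.74, Pcna by 0.82, Dut by 0.88, Tyms by 0.72 and Tk1 by 0.67.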

How the results depend on the processing

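Over the planned and added settings, no called change of the 8 genes turned its direction. Outside the fits that left out 1 mouse, 268 called values kept their call and 2 lost it, while 338 uncalled values stayed so and 4 gained a call. Between day 1 and day 2, 1 instead of 2 of the 8 genes was called with only these groups in the fit (Dut missed the threshold), and 1 when values in all 20 mice were required, which leaves Mcm4 and Lig1 untested. Over all genes, the day 1 to day 2 count of 111 became 241 with all 40 arrays and the mouse as a random block, 68 with mice scaled to the same median absolute deviation and 65 with only the 2 groups, and the day 5 count against control of 139 became 210 with the 40 arrays and 225 with the scaling; for these counts the cause was not tested. Leaving out 1 mouse at a time gave 5 to 6 of the 8 genes on day 1, 4 to 5 on day 2, 0 to 0 on day 5, 2 to 2 between day 1 and day 2, 3 to 4 between day 2 and day 5 and 5 to 6 between day 1 and day 5. The matching ranges over all genes were 611 to 1313, 592 to 1123, 100 to 161, 77 to 167, 816 to 1211 and 970 to 1574. The count on day 1 was 641 without day 1 mouse 2 and 611 without day 1 mouse 3, that on day 2 was 592 without day 2 mouse 1, and that between day 1 and day 2 was 167 without day 5 mouse 4. Cdc6 was called between day 1 and day 5 with the 40 arrays (0.34, limma adjusted p = 0.0157) and with values required in all 20 mice (adjusted p = 0.0459).

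Deviations of same-numbered mice from their group means had correlations of -0.39 to 0.33 over 30 pairs. Their mean was 0.029, against -0.0071 for differently numbered mice. The labels give only a replicate number, so whether same-numbered mice were processed together is unknown and these correlations cannot settle it. With the number as a replicate block, the counts over the 8 genes were 6, 4, 0, 2, 4 and 5 in the same order as above, and 986, 979, 124, 115, 1084 and 1295 over all genes, against 1012, 1018, 139, 111, 1102 and 1341. It changed no call of the 8 genes.

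The number of arrays limits the precision, and a gene below the authors' filter on most arrays was not tested. Mcm4 and Lig1 rest on 18 mice, and the Mcm10 probe 034D17 on 14. The setting without control mouse 4 and day 1 mouse 1, and the pairwise comparisons, were added after the data had been seen.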
